A study of Rattus norvegicus with 38 samples.

Results

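Liver RNA was compared between 5 rats aged 12 months that belonged to the bis_2-chloroethoyl_methane study and 5 rats aged 6 months that belonged to the pulegone study. The 10 were taken by their titles from 38 male F344 rats, an inbred strain also called Fischer, and the other 28 come from 6 further studies. Per the labels no rat was dosed, and the chemical only names the study that a rat was kept beside. The 12-month rats were about 58 weeks old and the 6-month rats about 32 weeks old, so the groups differed by age and by study at once, and these cannot be told apart. Each liver was labelled with Cy5 and hybridised to its own 2-colour Agilent array against the same Cy3-labelled pool of RNA from 63 sentinel rats, of which 25 were near the younger age, 25 near the middle age and 13 older. That pool is a common reference and no sample of a group. Nothing in the labels shows litters, cages or separate extractions, so p-values measure the spread between these livers.

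The liver is the main site of steroid and drug metabolism, plasma protein production and fatty acid synthesis, and in rats many of these genes are set by sex. Males release growth hormone in pulses, which activate the transcription factor STAT5B in bursts and sustain male-specific enzymes such as Cyp2c11 and Cyp3a2, while the steady pattern of females sustains enzymes such as Cyp2c12. Male-specific liver enzymes are known to decline in old male rats. Old livers are also known to gather inflammatory cells.

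Values are deposited scores, in which each array has a mean near 0 and an SD near 1 over its probes. A score of 1 is thus 1 SD of that array's log ratios above its mean, and differences are 12-month minus 6-month means of these scores each with its standard error (SE) from the fit. Since the labels give Cy5 to the rat and Cy3 to the pool, a higher score was taken to mean relatively more of the transcript in that rat. Adjusted p-values come from limma, corrected by the Benjamini-Hochberg method for all 20274 probes tested, and a probe below 0.05 is called. Over all probes the arrays of the pulegone rats correlated with each other at 0.353 to 0.739, those of the bis_2-chloroethoyl_methane rats at 0.0854 to 0.522, and arrays of different groups at -0.0792 to 0.441. Some arrays of other studies ran against these, down to -0.331 between the 12-month studies and -0.358 between the pulegone and Pyrogallol rats, and the direction given by the dye labels was kept for all. Of 31 markers listed as defining for a liver cell type, 23 were measured, and Cd3d of T cells (0.91, adjusted p 0.00814) and Krt19 of bile duct cells (1.14, adjusted p 0.00598) passed the test. Apoa1 and Hnf4a, markers of hepatocytes, did not pass, with differences of 0.115 and 0.746. In whole liver, fewer cells of a type and less RNA per cell cannot be told apart.

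Between the 12-month bis_2-chloroethoyl_methane and the 6-month pulegone livers 4123 probes were called, which is 20.3% of those tested. Rats are numbered 1 to 5 within each group, in the order in which scores are given below. The count was 2698 without 12-month rat 5 and 2720 without 6-month rat 4, the lowest with 1 rat left out, and 5095 without 12-month rat 1, the highest. Of them 2298 were higher at 12 months and 1825 lower, and for 3538 probes (17.5%) all 5 rats of one group lay above all 5 of the other. With 1 probe for each of 9648 genes, 1122 genes (11.6%) were higher and 1033 (10.7%) lower. The split between higher and lower calls depended on the scaling. Higher calls were 55.7% of all calls on the scores as deposited, 48.3% once each array was centred on its median, and 45.4% on the recovered log ratios. The median difference over all probes was 0.0496 as deposited and -0.0198 after centring.

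Studies of 1 age, with 5 rats each, gave counts on both sides of this. The bis_2-chloroethoyl_methane rats and the other 12-month rats, of the 1,2-dibromo-2,4-dicyanobutane study, differed at 7315 probes, 36.1% of those tested. At 6 months the pulegone rats differed from the DMPT rats at 9874 probes (48.7%) and from the Pyrogallol rats at 10363 (51.1%), and the titles of the DMPT and Pyrogallol arrays are written in another style. Other pairs of 1 age hardly differed by the same limma test. Pyrogallol and DMPT rats differed at 1 probe (0.00493%), and 5-hydroxymethyl-2-furfural and beta-myrcene rats, both aged 18 months, at 0 probes (0.00%), with 1373 probes at an unadjusted p below 0.05. The 6 to 12 month difference described here was therefore smaller in its count of probes than 3 of the 5 differences between studies of the same age.

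**Figure D1:**
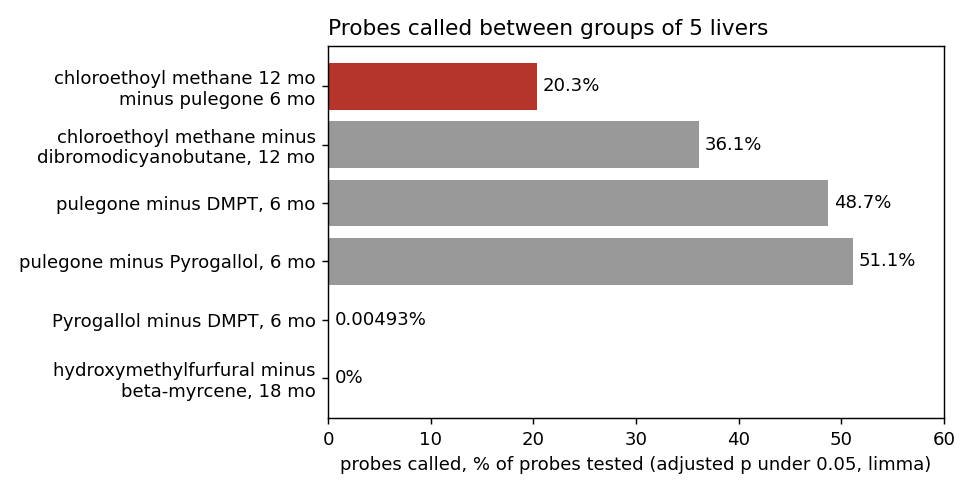
Percentage of tested probes called by limma (adjusted p under 0.05) in each comparison of 5 with 5 livers. The 12-month bis_2-chloroethoyl_methane minus 6-month pulegone comparison (red) reached 20.3%, and the same-age pairs of studies (grey) ran from 0.00% to 51.1%.

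The genes with the largest fall at 12 months included hydroxyacid, sulfate and methyl group enzymes of the liver. Gimd1, a protein with a GIMAP-type nucleotide-binding domain, scored -0.789, -1.86, -2.61, -1.11 and -1.66 in the 12-month rats and 2.02, 5.78, 3.55, 4.45 and 5.75 in the 6-month rats. It fell by 5.92 (SE 0.697, n = 5 and 5, limma adjusted p 0.00235), the largest fall of any named gene that separated the groups. Every pulegone rat scored above 0 and every bis_2-chloroethoyl_methane rat below 0. At 6 months Gimd1 averaged 4.31 in the pulegone rats, 1.21 in the DMPT rats and -1.21 in the Pyrogallol rats. The bis_2-chloroethoyl_methane rats were lower than the DMPT rats by limma (adjusted p 0.00317), but the test did not pass against the Pyrogallol rats (adjusted p 0.732). Hao2, a peroxisomal hydroxyacid oxidase, scored -2.46, -2.88, -1.28, -1.36 and -3.94 at 12 months and 0.589, 3.53, 1.62, 2.91 and 2.34 at 6 months, a fall of 4.58 (SE 0.642, limma adjusted p 0.00328). Its groups also lay on opposite sides of 0. Sult1e1, the estrogen sulfotransferase, scored -3.22, -5.14, -2.49, -2.45 and -6.65 at 12 months and -0.788, 0.957, 0.521, 0.781 and 0.244 at 6 months, a fall of 4.33 (SE 0.788, limma adjusted p 0.00613). The younger rats scored near 0, and the fall was carried by all 5 older rats, most of all by rats 2 and 5. In fits that shared the spread with 28 or with all 38 arrays Sult1e1 did not pass (limma adjusted p 0.133 and 0.0726).

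Inmt, indolethylamine N-methyltransferase, fell by 3.78 (SE 0.973, limma adjusted p 0.0228), with scores of -4.78, -1.96, -1.56, -4.02 and -4.72 against -1.06, 3.49, 0.068, 0.537 and -1.18. The groups did not overlap, although rats 1 and 5 of the pulegone study came near the 12-month rats. Both other Inmt probes fell as well, by 2.13 and 2.51. Without 12-month rat 5 or 6-month rat 4 the limma adjusted p of Inmt was 0.0577 or 0.0515. Fabp7, a fatty acid binding protein best known from brain, fell by 4.37 (SE 0.702, limma adjusted p 0.00421), Marveld1, a membrane protein, by 4.29, and Nrep, a small protein known from regenerating neurons, by 4.19. Dmxl2, a regulator of the vacuolar proton pump, scored -0.468, -0.106, -0.862, -0.787 and -1.56 at 12 months and 2.15, 3.12, 2.02, 3.92 and 3.8 at 6 months and fell by 3.76 (SE 0.429, limma adjusted p 0.00235). In the DMPT and Pyrogallol rats, also aged 6 months, Dmxl2 averaged 0.466 and -0.383. The bis_2-chloroethoyl_methane rats were lower than the DMPT rats (limma adjusted p 0.0448), but the test did not pass against the Pyrogallol rats (0.703). Prelid3b, of a family of mitochondrial phospholipid carriers, fell by 3.65, and its 6-month scores lay close together, at 1.82, 1.73, 1.61, 2.26 and 1.7. Tac1, the substance P precursor, fell by 3.46. The histone deacetylase Hdac2 fell by 3.37, with scores of -1.63, -1.68, -4.67, -3.42 and -1.7 against 0.901, 1.06, 0.393, 0.762 and 0.665. Rad50, part of the complex that binds DNA breaks, fell by 3.13 (SE 0.875, limma adjusted p 0.0314), and 12-month rat 4 alone reached -6.46 where the other 12-month rats were between -2.77 and -0.972. The call did not depend on that rat, and without it the limma adjusted p was 0.0113, but it was lost without rat 3 of the older group (0.0614) or without rat 1, 3, 4 or 5 of the younger group (0.0573 to 0.0727).

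**Figure D2:**
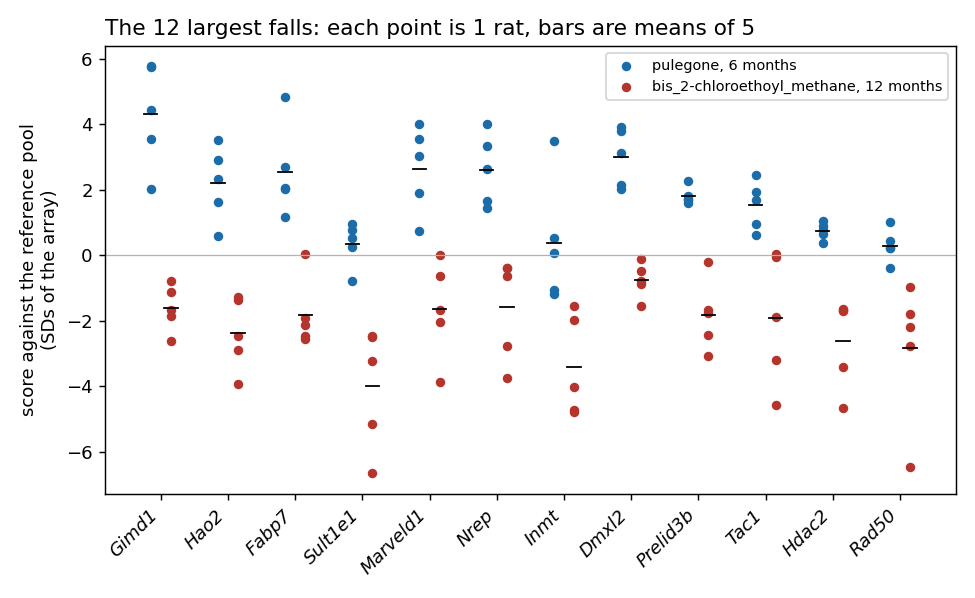
Scores of the 12 largest falls in each of the 5 pulegone rats aged 6 months (blue) and the 5 bis_2-chloroethoyl_methane rats aged 12 months (red), in SDs of the array. Bars are group means, and in each gene the blue points lie above all the red points, by the rule that chose the genes.

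Some of these falls were shared with the other 12-month study and others were not, as the study means show. Nrep averaged 2.62 in the pulegone rats, -1.57 in the bis_2-chloroethoyl_methane rats and -2.75 in the 1,2-dibromo-2,4-dicyanobutane rats, so both 12-month studies were low. Fabp7 averaged 2.56, -1.81 and -0.506 in the same order, and Marveld1 2.65, -1.63 and -0.842. In these 3 genes limma found no difference that passed between the 12-month studies (adjusted p 0.311, 0.0818 and 0.441). The DMPT and Pyrogallol rats, also aged 6 months, averaged 3.79 and 1.70 in Nrep, 1.04 and 0.739 in Fabp7, and 2.08 and -0.0964 in Marveld1. Against the Pyrogallol rats limma called Nrep (adjusted p 0.00961) and Fabp7 (0.0105) lower in the bis_2-chloroethoyl_methane rats, but Marveld1 did not pass (0.215). Prelid3b and Hdac2 stood apart. Prelid3b averaged -1.82 in the bis_2-chloroethoyl_methane rats against 2.16 in the other 12-month study (limma adjusted p 0.000482), and at 6 months 1.82 in the pulegone rats against -3.07 and -3.06 in the DMPT and Pyrogallol rats. Hdac2 averaged -2.62 against 1.03 at 12 months (limma adjusted p 0.00151), and 0.755 against -1.94 and -2.77 at 6 months. For both genes the 12-month studies thus differed by more than the groups compared.

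Male-biased liver genes were more often lower than higher at 12 months. This list and the female-biased list below were written with earlier results of these data known. Sult1e1, Inmt, Cyp3a2, Cyp2c11 and Stac3 were among the genes those results gave for age, so the shares are a description. Of 15 measured, 6 fell (40% against 10.7% of all genes), namely Sult1e1, Inmt, Cyp3a2, Slc22a8, Rgn and Slco1a1, and 2 rose, Cyp2c23 and Ces2c, and the median difference of the list was -1.21 against 0.033 over all genes. Cyp3a2, a steroid hydroxylase of adult males, scored -2.98, -4.07, -0.766, -2.13 and -5.76 at 12 months and -0.06, 0.981, -0.18, 0.069 and -1.69 at 6 months. It fell by 2.97 (SE 0.85, limma adjusted p 0.0345), though rat 3 of the older group stood above rat 5 of the younger. This call was lost without either of older rats 2 and 5 or any of younger rats 1 to 4, at adjusted p 0.0578 to 0.0752, and in the limma fits with 28 and 38 arrays (0.484 and 0.414). Cyp2c11, the main male-specific testosterone hydroxylase, had scores of -1.48, -2.16, 0.5, -1.6 and -3.02 against -1.08, 1.44, 0.521, 0.867 and -0.208, a difference of -1.86 that did not pass (SE 0.654, limma adjusted p 0.0694). Older rat 3 was again within the range of the younger rats, and without it Cyp2c11 passed (limma adjusted p 0.0204). Stac3, listed with them, differed by -2.49 (SE 0.901) and did not pass either (limma adjusted p 0.0758), except without older rat 1 or younger rat 1 (0.0431 each).

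Slc22a8, an organic anion transporter, fell by 2.80 (SE 0.597, limma adjusted p 0.0108), and Slco1a1, another organic anion transporter, by 1.21. Rgn, regucalcin, a calcium-binding enzyme of vitamin C synthesis in rodents, fell by 1.76, with scores of -1.37, 0.171, -0.776, -0.827 and -1.01 against 0.698, 1.89, 0.584, 1.29 and 0.534. Its groups did not overlap. Cyp2c23, an arachidonic acid epoxygenase, went the other way and rose by 2.06 (SE 0.354, limma adjusted p 0.00514), and the carboxylesterase Ces2c rose by 1.26. Of 18 female-biased genes measured, 3 rose (Acsm2, Prlr and Abcc3) and 3 fell (Hao2, Cyp3a9 and Cyp2c12), with a list median of 0.499. That is 16.7% each way, where 11.6% of all genes rose and 10.7% fell. Acsm2, a medium-chain acyl-CoA synthetase, rose by 2.33 (SE 0.549, limma adjusted p 0.0161), with 0.669, 0.358, 0.744, 0.573 and 1.71 at 12 months and 0.593, -2.65, -1.5, -1.97 and -2.08 at 6 months. Rat 1, the highest of the pulegone rats, lay within the range of the older rats. Cyp2c12, the classical female-specific enzyme, fell by 1.11, and Trim24, a chromatin reader, differed by 1.40 without passing (limma adjusted p 0.181).

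The other studies set these values in context. Sult1e1 averaged 0.963, 0.521 and 0.343 in the 3 studies at 6 months and 0.137 in the other 12-month study. It averaged -3.99 in the bis_2-chloroethoyl_methane rats and -11.0, -6.44 and -17.0 in the 18-month rats of the beta-myrcene study, the 5-hydroxymethyl-2-furfural study and the isoeugenol study. The mean of the bis_2-chloroethoyl_methane rats thus lay between those of the younger and the 18-month studies. By limma they differed from the isoeugenol rats (adjusted p 0.0189), but the test did not pass against the beta-myrcene (0.109) or 5-hydroxymethyl-2-furfural rats (0.321), whose ranges overlapped theirs. Cyp3a2 averaged -0.0662 in the 1,2-dibromo-2,4-dicyanobutane rats, -3.14 in the bis_2-chloroethoyl_methane rats and from -6.05 to -18.9 at 18 months. Between the 12-month studies limma called Sult1e1 (adjusted p 0.00551), Inmt (0.00883), Hao2 (0.0281), Cyp3a2 (0.032), Cyp2c11 (0.0458) and Stac3 (0.00669), all lower in the bis_2-chloroethoyl_methane rats. Acsm2, Pla1a and Trim24 did not pass there, with differences of 0.585, 0.347 and 0.773. Pla1a, a phosphatidylserine lipase, rose against the pulegone rats by 2.42 (SE 0.464, limma adjusted p 0.00727), with 1.57, 0.484, 0.661, 2.54 and 1.85 against -0.232, -1.95, -1.26, -1.3 and -0.231. Its groups did not overlap, and the other 12-month study averaged 1.07.

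**Figure D3:**
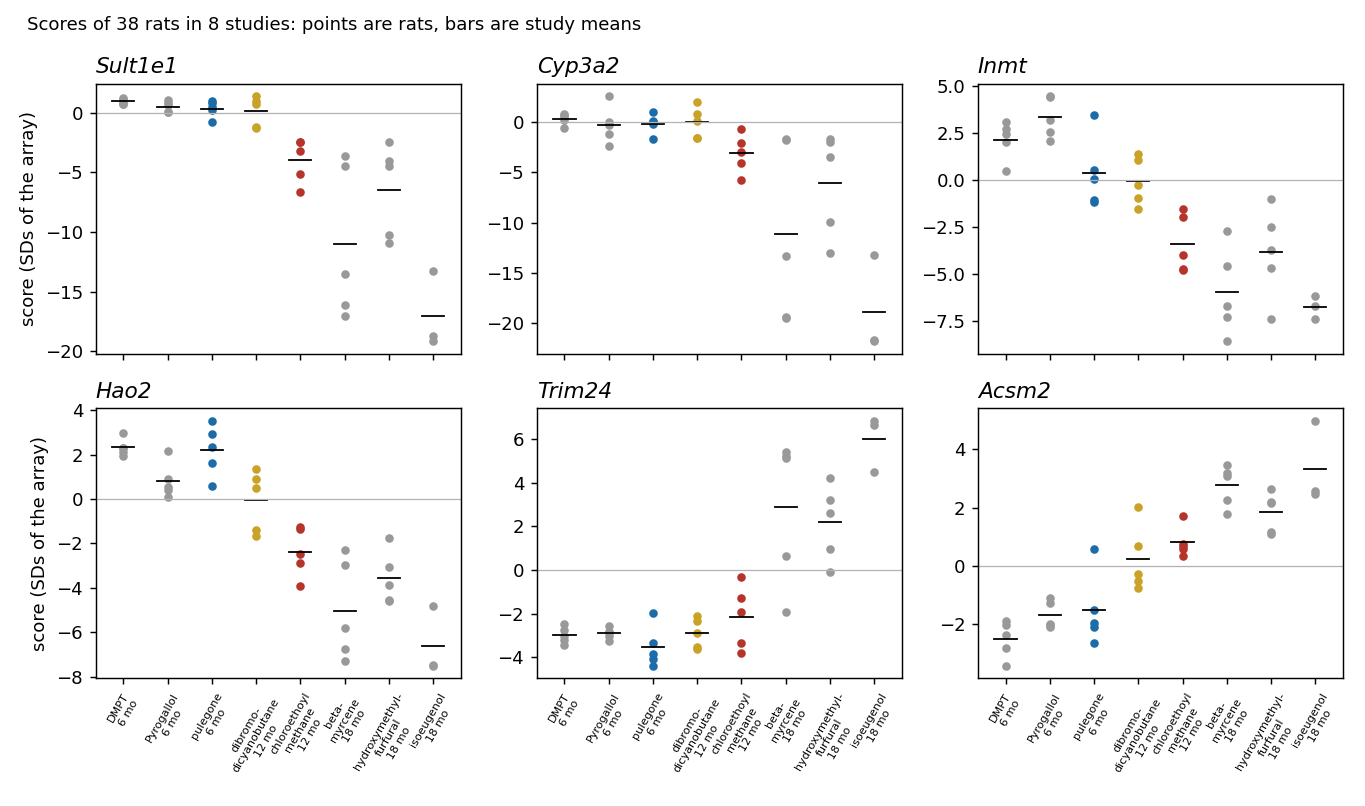
Scores of Sult1e1, Cyp3a2, Inmt, Hao2, Trim24 and Acsm2 in all 38 rats, in SDs of the array, by study and age in months (mo). In Sult1e1, Cyp3a2, Inmt and Hao2 the bis_2-chloroethoyl_methane rats (red) average lower than the pulegone rats (blue) and the 1,2-dibromo-2,4-dicyanobutane rats (ochre); bars are study means.

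RefSeq promoter windows of GRCr8, from 250 bases before to 50 after a gene's start, were searched for the STAT5-type site TTCNNNGAA, which reads the same on both strands. It occurred in 8.87% of all 33469 windows. Of the 8 male-biased genes that passed, all 8 had a single window, and none held the site. Of the 6 female-biased genes that passed, 4 had a single window, and none of those held it either.

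Many subunits of the respiratory chain, the ribosome and the proteasome were lower at 12 months. Of 54 oxidative phosphorylation genes 22 fell (40.7%) and 1 rose, with a median of -0.505. Of 47 ribosomal protein genes 19 fell (40.4%) and 1 rose, with a median of -0.641, and of 37 proteasome and ubiquitin genes 16 fell (43.2%) and 2 rose, with a median of -0.525. Beside them 10.7% of all genes fell and the median over all genes was 0.033. Uqcrc2, a core subunit of complex III, scored -0.32, -0.402, -0.884, -1.43 and -1.38 at 12 months and 0.831, 0.831, 0.549, 1.42 and 0.662 at 6 months, a fall of 1.74 (SE 0.273, limma adjusted p 0.00388). All 5 older rats scored below 0 and all 5 younger rats above it. Falls ran through the complexes, with Ndufa9 (1.46) and Ndufs3 (1.36) of complex I, Sdhd (1.25) of complex II, Cox4i1 (1.65) and Cox6c (1.72) of complex IV, and Atp5mc2 (1.74) and Atp5mg (1.50) of ATP synthase. Sdha, the flavoprotein of complex II, was the member that rose, by 0.56.

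Rpsa, a protein of the small ribosomal subunit, scored -0.431, -1.61, -2.42, -1.69 and -2.75 at 12 months and 0.473, 1.54, 0.528, 1.09 and 0.057 at 6 months, a fall of 2.52 (SE 0.439, limma adjusted p 0.00525). Rps26 fell by 1.86, Rpl35a by 1.80 and Rpl21 by 1.75, and Rpl32 rose by 0.73. Ribosomal protein genes have many near-identical processed copies, so a probe may read more than its named gene. Psmc6, an ATPase of the proteasome cap, scored -1.23, -1.26, -1.77, -1.89 and -1.87 at 12 months and 0.8, 0.812, 0.304, 1.3 and 0.318 at 6 months, and its fall of 2.31 (SE 0.24, limma adjusted p 0.00235) was the clearest in the proteasome list. The groups were far apart relative to their spread. The core subunits Psma2, Psma4 and Psma1 fell by 2.09, 1.80 and 1.70, and the ubiquitin-conjugating enzyme Ube2d2 by 1.59. Psmc1 and the deubiquitinase Usp14 rose by 0.55 and 0.50.

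Rat means over each list show how far single animals carried this. For oxidative phosphorylation the 12-month rats ran from -0.597 to 0.2 and the 6-month rats from 0.137 to 0.492. Rat 1 was the high one of the older group in that list and in the ribosomal list, where the ranges were -0.693 to 0.12 and 0.0871 to 0.474, and rat 5 was the lowest in both. For the proteasome the ranges did not overlap, at -0.639 to -0.168 and 0.0601 to 0.338. The other 12-month study ran from -0.0384 to 0.549, -0.217 to 0.471 and 0.000595 to 0.684 in the same lists. Against those rats 23, 23 and 16 members were called lower in the bis_2-chloroethoyl_methane rats, where 20.2% of all genes were lower and 17.6% higher. That comparison and the main one share the bis_2-chloroethoyl_methane rats.

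**Figure D4:**
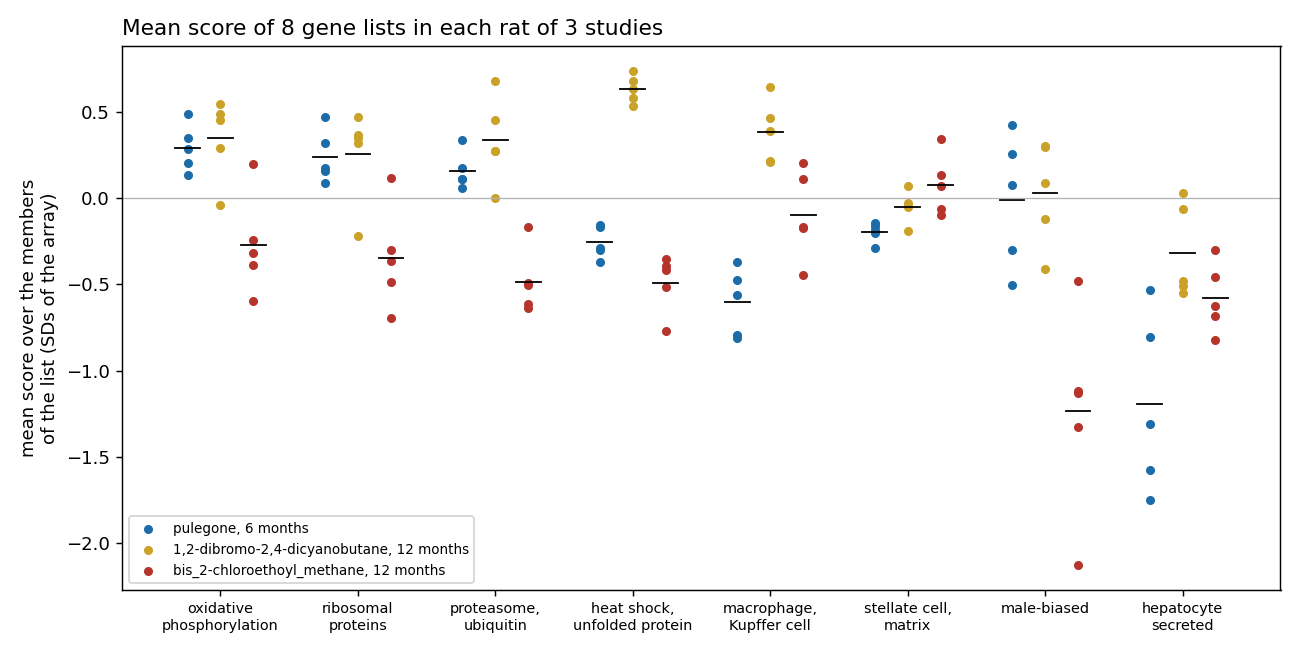
Mean score over the measured members of 8 gene lists in each rat, in SDs of the array, for the pulegone (blue, 6 months), 1,2-dibromo-2,4-dicyanobutane (ochre, 12 months) and bis_2-chloroethoyl_methane (red, 12 months) studies; bars are group means. The red proteasome points lie below all the blue ones, and the red macrophage means run from -0.445 to 0.206 where the blue ones run from -0.813 to -0.37.

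Several chaperones of the cytosol and mitochondria were lower at 12 months than in the pulegone rats, and so was Hspa5 of the endoplasmic reticulum. Canx and a pair of disulfide isomerases of the endoplasmic reticulum were higher, and so was the small heat shock protein Hspb8 (by 0.957). Of 46 heat shock and unfolded protein response genes 10 fell (21.7% against 10.7% of all genes) and 5 rose (10.9% against 11.6%), with a median of -0.218; without pulegone rat 4 the falls were 6. Hspd1, the mitochondrial chaperonin, scored -2.07, -2.35, -2.71, -2.27 and -3.08 at 12 months and -0.74, -0.788, -0.993, -0.947 and -2.08 at 6 months and fell by 1.39 (SE 0.295, limma adjusted p 0.0107). Rat 5, the lowest of the younger rats, and rat 1, the highest of the older rats, had almost the same score. Its partner Hspe1 fell by 0.83. Falls also passed for Hsph1 (1.68), a nucleotide exchange factor of Hsp70, its co-chaperones Dnaja2 (2.04) and Dnaja1 (1.08), Hsp90aa1 (1.21) with its activator Ahsa1 (1.46), and Tcp1 (0.86) and Cct6a (0.63) of the chaperonin TRiC. In the endoplasmic reticulum Hspa5, its Hsp70, fell by 1.35 (SE 0.328, limma adjusted p 0.0184). Canx, calnexin, rose by 2.32 (SE 0.283, limma adjusted p 0.00235), with 0.02, -0.002, 0.319, 1.01 and 0.93 against -2.57, -1.54, -1.53, -1.97 and -1.74, and the disulfide isomerases P4hb and Pdia4 rose by 1.21 and 1.12. The calnexin groups did not overlap. Over the whole list the mean was -0.489 in the bis_2-chloroethoyl_methane rats, -0.256 in the pulegone rats and 0.636 in the other 12-month study. In the DMPT and Pyrogallol rats, also aged 6 months, it was -0.493 and -0.563, as low as in the bis_2-chloroethoyl_methane rats. Against the other 12-month study Hsph1 was lower by 3.88 and Hspd1 by 3.87, whereas Hspe1 (0.527, limma adjusted p 0.055), Cct6a (-0.201, adjusted p 0.411) and Canx did not pass (-0.572, limma adjusted p 0.377).

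Promoters of 5 of these genes are shown for their stress elements, among them the alternating GAA and TTC units that heat shock factor 1 binds. Known targets of that factor in the list did not all pass, and Hspa1a (0.85), Dnajb1 (0.12), Hspa8 (-0.59) and Bag3 (-0.23) were among those that did not. The part of the factor was not tested. The windows are from RefSeq, build GRCr8, 250 bases before to 50 after the start and written 5′ to 3′ on the gene's strand. Capitals mark pairs of such units (GAANNTTC or TTCNNGAA, each of which reads the same on both strands, and neighbouring matches may overlap), or in Hspa5 and Canx the endoplasmic reticulum stress element, CCAAT and CCACG 9 bases apart, searched on both strands.
Hspd1 promoter (chr9:64083988-64084287, minus strand): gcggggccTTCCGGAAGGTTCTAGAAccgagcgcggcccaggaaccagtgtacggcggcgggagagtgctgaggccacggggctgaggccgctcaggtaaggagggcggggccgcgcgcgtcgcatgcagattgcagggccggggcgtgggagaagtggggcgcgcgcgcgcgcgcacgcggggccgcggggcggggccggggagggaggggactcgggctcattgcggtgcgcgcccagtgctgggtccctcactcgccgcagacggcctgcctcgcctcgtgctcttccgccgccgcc
Hsph1 promoter (chr12:10427118-10427417, plus strand): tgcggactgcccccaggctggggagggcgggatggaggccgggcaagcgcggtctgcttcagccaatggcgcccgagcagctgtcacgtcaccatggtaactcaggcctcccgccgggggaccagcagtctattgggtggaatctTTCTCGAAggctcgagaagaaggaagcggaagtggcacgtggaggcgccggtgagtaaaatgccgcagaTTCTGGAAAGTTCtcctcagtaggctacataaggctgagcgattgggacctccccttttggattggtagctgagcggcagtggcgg
Dnaja1 promoter (chr5:60638154-60638453, plus strand): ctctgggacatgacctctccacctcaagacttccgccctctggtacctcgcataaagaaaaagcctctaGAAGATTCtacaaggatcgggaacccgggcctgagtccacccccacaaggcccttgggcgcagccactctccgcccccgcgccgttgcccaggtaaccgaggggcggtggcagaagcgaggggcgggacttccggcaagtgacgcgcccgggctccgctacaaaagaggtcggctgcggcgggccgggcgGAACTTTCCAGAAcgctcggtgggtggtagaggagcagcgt
Hspa5 promoter (chr3:38452766-38453065, plus strand): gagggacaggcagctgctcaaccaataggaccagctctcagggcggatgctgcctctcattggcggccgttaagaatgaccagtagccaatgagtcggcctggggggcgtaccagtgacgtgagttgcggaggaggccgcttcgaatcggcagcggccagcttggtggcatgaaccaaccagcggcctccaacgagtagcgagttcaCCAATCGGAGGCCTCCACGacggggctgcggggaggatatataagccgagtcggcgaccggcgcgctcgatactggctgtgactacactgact
Canx promoter (chr10:35157808-35158107, minus strand): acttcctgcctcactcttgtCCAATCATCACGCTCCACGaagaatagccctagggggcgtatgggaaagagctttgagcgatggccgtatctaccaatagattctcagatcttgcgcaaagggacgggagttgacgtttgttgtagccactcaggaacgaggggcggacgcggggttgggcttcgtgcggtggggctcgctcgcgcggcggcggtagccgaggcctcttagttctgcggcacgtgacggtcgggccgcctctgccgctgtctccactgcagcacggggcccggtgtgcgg
Of the 10 members that fell, 8 had a single window and 5 of these held a paired unit (Hspd1, Hspe1, Hsph1, Dnaja1 and Cct6a), and the windows of Hspd1 and Hspe1, which start back to back on chromosome 9, overlap. Of the members that rose 2 of 4 held one, and of those that did not pass 8 of 27, against 15.9% of all windows. The stress element occurred in 0.0657% of all windows, in Hspa5, which fell, in Canx, which rose, and in 4 members that did not pass. A match describes the letters in the window and shows no binding.

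Some genes of macrophages were higher at 12 months. The list was written with earlier results of these data known, and Mmp12 and Gpnmb were among the genes those results gave for age. Of 44 listed and measured, 11 rose (25% against 11.6% of all genes) and 0 fell by limma's adjusted p (2 at an unadjusted p below 0.05), with a median of 0.454. Rat means over the list ran from -0.445 to 0.206 at 12 months and -0.813 to -0.37 at 6 months. Spp1, osteopontin, scored 1.54, 1.49, 0.41, 0.107 and 0.106 at 12 months and -0.474, -1.97, -2.25, -3.09 and -3.21 at 6 months and rose by 2.93 (SE 0.536, limma adjusted p 0.00627). All older rats scored above 0 and all younger rats below it. Spp1 was also listed as a marker of bile duct cells. Mmp12, the macrophage elastase, rose by 2.63 (SE 0.793, limma adjusted p 0.0414), with 2.41, 2.02, 0.848, 0.975 and 0.064 against 0.688, -4.11, -0.778, -1.2 and -1.42. Younger rat 1 overlapped the older rats, and younger rat 2 lay far below the rest. The Mmp12 call was lost without any 1 of rats 1 to 4 of the older group or rats 3 to 5 of the younger (limma adjusted p 0.0575 to 0.081), and with array weights (0.0663). Gpnmb, a glycoprotein of lipid-laden macrophages, rose by 2.25 (SE 0.45, limma adjusted p 0.00848), with 0.998, 1.34, 0.664, 0.546 and -0.578 against -0.375, -2.51, -1.36, -1.94 and -2.07. Rat 5 of the older group fell below rat 1 of the younger. The lysosomal protease Ctsb rose by 1.88 (SE 0.206, limma adjusted p 0.00235), the membrane protein Laptm5 by 1.50, galectin 3 (Lgals3) by 1.32, and the receptor Trem2 and its adaptor Tyrobp by 1.13 and 1.20. The defining macrophage markers Cd68, Cd163, Marco and Csf1r did not pass, with differences of 0.142, 0.0048, 1.13 and 0.171, and the Kupffer cell marker Clec4f did not pass either (0.447). Against the other 12-month study 6 members were higher and 11 lower, where 17.6% and 20.2% of all genes were. Ctsb (1.01, limma adjusted p 0.0011), Laptm5 (0.79, adjusted p 0.0219) and Tyrobp (1.00, adjusted p 0.0211) were among the higher. Between the 12-month studies Spp1, Mmp12, Gpnmb and Lgals3 did not pass, and their differences were -0.248, -0.79, 0.0042 and 0.0484.

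Of 46 stellate cell, fibroblast and matrix genes 9 rose (19.6% against 11.6% of all genes). By limma's adjusted p 0 fell, against 10.7% of all genes (1 at an unadjusted p below 0.05), and the median was 0.3. The count of rises was 5 on the recovered log ratios, 4 without younger rat 2 or 4, and 5 without older rat 2, 3 or 5 or younger rat 3 or 5. Thy1, a surface protein of fibroblasts and T cells, scored 1.25, 1.3, 1.34, 1.63 and 1.18 at 12 months and 0.073, 0.148, 0.206, -0.205 and 0.082 at 6 months, a rise of 1.28 (SE 0.15, limma adjusted p 0.00235). The spread within each group was small beside the gap. The protease inhibitors Timp3 and Timp2 rose by 1.33 and 0.92, fibronectin (Fn1) by 1.28, vimentin (Vim) by 0.91 and decorin (Dcn) by 0.76. The collagens Col1a2 and Col3a1 did not pass (0.275 and 0.518), nor did the defining stellate cell markers Des, Pdgfrb and Lrat. Rat means ran from -0.0974 to 0.346 in the bis_2-chloroethoyl_methane rats and -0.289 to -0.145 in the pulegone rats and did not overlap. The list averaged 0.0787 in the bis_2-chloroethoyl_methane rats and -0.0485 in the other 12-month study. In the DMPT and Pyrogallol rats, also aged 6 months, it averaged 0.151 and -0.155. Against the other 12-month study 9 members were higher and 5 lower, where 17.6% and 20.2% of all genes were. Lymphocyte genes went both ways, at shares near those of all genes. Of 45, 7 were higher (15.6% against 11.6%), among them Cd3d, Zap70 and Klrk1. Another 5 were lower (11.1% against 10.7%), among them granzyme A (Gzma, by 1.63) and the transcription factor Eomes (by 1.45). Cell cycle genes did likewise. Of 48, 6 fell (12.5% against 10.7% of all genes), among them cyclin B2 (Ccnb2, by 2.92), stathmin (Stmn1, by 2.33) and Cdk1 (by 1.58). Another 4 rose (8.33% against 11.6%), among them Top2a by 1.10.

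Plasma protein and metabolic genes of hepatocytes were more often higher than lower against the pulegone rats. Of 42 secreted and identity genes 10 rose (23.8% against 11.6% of all genes) and 3 fell (7.14% against 10.7%), with a median of 0.592. On the recovered log ratios, and without 12-month rat 5, the rises were 5. Against the other 12-month study 8 members were higher and 15 lower, where 17.6% and 20.2% of all genes were. The list averaged -0.577 in the bis_2-chloroethoyl_methane rats and -1.2 in the pulegone rats. In the DMPT and Pyrogallol rats, also aged 6 months, it averaged 0.401 and 0.4. Apoc1, an apolipoprotein, had a value on 4 of the 12-month arrays, at -0.099, 1.55, 1.03 and 2.29, against -3.2, -1.74, -1.42, -3.89 and -3.83 at 6 months, and rose by 4.01 (SE 0.657, limma adjusted p 0.00519). The groups did not overlap. The histidine-rich glycoprotein Hrg rose by 2.47, the vitamin D binding protein Gc by 2.16 and vitronectin (Vtn) by 2.12, while the paraoxonase Pon1 fell by 1.53. Of 46 amino acid and urea cycle enzymes 9 rose (19.6%), among them Cps1 (1.45) and Ass1 (1.19) of the urea cycle, and Kmo alone fell (2.17%). Against the other 12-month study 1 member was higher and 16 lower. Ass1 differed there by -2.29 (limma adjusted p 0.00703). Of 22 genes of fatty acid and triglyceride synthesis 6 rose (27.3%) and 2 fell (9.09%). Against the other 12-month study 2 members were higher and 7 lower. Fasn, fatty acid synthase, scored 2.58, 1.62, 0.498, -0.3 and 1.2 at 12 months and -1.56, -4.91, -0.891, -1.49 and -0.609 at 6 months, a rise of 3.01 (SE 0.82, limma adjusted p 0.0285). Elovl6, which elongates its product, rose by 3.02 and was lowest in the same pulegone rat, 2. The malic enzyme Me1, which supplies NADPH to that pathway, fell by 2.16 (SE 0.36, limma adjusted p 0.00472). Of 22 cholesterol synthesis genes 0 rose by limma's adjusted p (1 at an unadjusted p below 0.05). In the same list 2 fell (9.09% against 10.7% of all genes), Stard4 by 1.78 and Sqle by 1.61.

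Oxidation and detoxification genes were mixed. Among 53 phase I enzymes, cytochromes P450 included, 8 rose (15.1%) and 5 fell (9.43%), near the 11.6% and 10.7% of all genes. Cyp2e1, the ethanol-inducible enzyme, rose by 2.51 (SE 0.532, limma adjusted p 0.0106), with -1.91, 0.194, 0.324, -1.07 and 0.61 against -2.74, -2.68, -1.89, -3.16 and -3.95, and older rat 1 lay level with the highest younger rat. Of 33 conjugating enzymes 7 fell (21.2%), with Nat8, an acetyltransferase of cysteine conjugates, lower by 2.71 (SE 0.31, limma adjusted p 0.00235) and Nnmt, nicotinamide N-methyltransferase, by 1.43, and 5 rose (15.2%), among them the glucuronosyltransferase Ugt1a7c by 2.71 and Gsta3 by 1.36. Of 31 fatty acid oxidation and PPARA target genes 6 rose (19.4%), among them the fatty acid translocase Cd36 (1.89), and 5 fell, among them Hadhb (1.28) and Acadl (1.27) of mitochondrial beta-oxidation. Of 28 iron, heme and copper genes 3 rose (10.7%), the ferritin light and heavy chains Ftl1 (by 2.17) and Fth1 (by 1.13) and the heme synthesis enzyme Alas1 (by 2.06), and 2 fell (7.14%), the transferrin receptor Tfrc (by 0.98) and Ireb2 (by 1.16), which represses ferritin translation. Of 21 clock genes the repressor Per2 fell by 2.11 (SE 0.314, limma adjusted p 0.00345) and the output factor Tef by 1.51, with 4 lower (19%) and 2 higher (9.52%) in all; the time of day at death was not used here. Of 28 nuclear receptors and sensors 7 rose (25%), among them the bile acid receptor Nr1h4 (1.04), and 1 fell (3.57%), Nr1h3 (0.87).

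Genes of bile acid uptake rose and fell beside each other. Of 21 bile acid genes 5 rose (23.8% against 11.6% of all genes) and 4 fell (19% against 10.7%), with a median of 0.445. Slc10a1, the sodium-dependent carrier that takes bile acids up from blood, scored 1.18, 1.53, 1.76, 1.35 and 2.04 at 12 months and 0.204, -0.548, 0.292, 0.369 and 0.58 at 6 months, a rise of 1.39 (SE 0.247, limma adjusted p 0.00561). All older rats lay above all younger rats. Slc27a5, which joins bile acids to coenzyme A, rose by 1.32, and the transcription factor Nr5a2 by 1.30. The sodium-independent carriers Slco1a4 and Slco1a1 fell by 1.35 and 1.21, as did the oxysterol hydroxylase Cyp7b1 by 2.12 and the sterol exporter Abcg5 by 2.46. Of 38 antioxidant genes 7 fell (18.4%) and 5 rose (13.2%). The superoxide dismutases Sod2 of mitochondria and Sod1 of the cytosol fell by 1.52 and 1.07. Sod1 scored -0.878, -1.03, -0.832, -1.01 and -1.08 against 0.069, 0.356, 0.131, 0.361 and -0.384. The groups did not overlap, and 4 of the 5 younger rats scored above 0. The peroxiredoxins Prdx4 and Prdx5 fell by 1.34 and 1.02, and the glutathione peroxidase Gpx1 rose by 1.23. Of 38 genes of glucose and glycogen metabolism 8 rose (21.1%), among them the glycolytic enzymes Eno1 (1.56) and Gpi (1.22) and the liver pyruvate kinase Pklr (0.64), and 2 fell, Ldha (by 1.49) and Pgk1 (by 1.04). Glycolytic enzymes have many processed copies, so these probes too may read more than their named gene.

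Complement and coagulation proteins, most of them made by hepatocytes and released into blood, also went both ways. Of 37 measured 8 rose (21.6% against 11.6% of all genes) and 5 fell, with a median of 0.408. The list averaged -0.568 in the bis_2-chloroethoyl_methane rats, -0.884 in the pulegone rats and -0.0479 in the other 12-month study. In the DMPT and Pyrogallol rats, also aged 6 months, it averaged -0.181 and -0.439. Against the other 12-month study 5 members were higher and 14 lower, where 17.6% and 20.2% of all genes were. C4a, a complement component of the classical and lectin pathways, scored -2.63, -1.47, -0.605, -1.59 and -1.04 at 12 months and -2.96, -3.34, -2.8, -3.94 and -3.64 at 6 months and rose by 1.87 (SE 0.372, limma adjusted p 0.00828). The groups did not overlap, though older rat 1 came close to the younger rats. The regulator Cfi, the coagulation factor F12 and the terminal component C9 rose by 1.66, 1.59 and 1.44, and the protease C1s by 1.21. The mannose-binding lectins Mbl1 and Mbl2 fell by 1.00 and 0.67, the regulator C4bpb by 1.72 and Cfd, complement factor D, by 1.54. Cfd was also listed among markers of tissue carry-over from pancreas, gut, muscle or fat. Acute phase proteins split evenly, with 4 of 23 higher (17.4%), among them Lbp (2.28), which binds bacterial lipopolysaccharide, and the orosomucoid Orm1 (1.69), and 4 lower, among them the fibrinogen chain Fgb (by 1.16).

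The largest rises came from probes that ran together over all arrays. The 12 genes were Mmp15, Akirin2, Sox15, Fxyd7, Adcy7, Irf2bpl, Hoxb2, C13h2orf76, Gcnt2, Nectin1, Avp and Lama5, with differences from 6.50 to 4.93. They encode proteins as unlike as a membrane-bound metalloproteinase (Mmp15), developmental transcription factors (Sox15, Hoxb2), the vasopressin precursor (Avp) and a laminin chain (Lama5). Mmp15 scored -0.996, 0.128, 4.01, 2.72 and 4.47 at 12 months and -6.52, -3.52, -2.56, -3.93 and -5.67 at 6 months, a difference of 6.50 (SE 1.15, limma adjusted p 0.00558). Lama5 scored 0.023, -0.016, 2.99, 2.42 and 2.81 and -4.32, -2.68, -2.51, -3.16 and -3.76, a difference of 4.93 (SE 0.679, limma adjusted p 0.00313). In both genes rats 1 and 2 were the lowest of the older group and rats 1 and 5 of the younger. Over the 38 arrays each of the 12 correlated with their mean at 0.972 or above, a description in which all points share the pool and the platform.

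The 12 included, 513 probes correlated with that mean above 0.9 and 73 below -0.9. Of the 513, 483 were called higher, with a median difference of 1.44, and 168 of the 250 largest called rises belonged to them. A gene symbol was listed for 60.6% of the 513. Genes of this set with another probe outside it numbered 118, and of those 199 outside probes 28 were called higher and 7 lower, with a median difference of 0.302. The second probe of Mmp15 rose by 0.936 (limma adjusted p 0.0116). The second probes of Adcy7, Gcnt2 and Nectin1 (-1.37, -0.505 and -0.0302) and the 4 other probes of Lama5 (-0.414, 0.693, -0.0308 and 0.257) did not pass. The mean score of the set was -0.447, 0.094, 1.05, 0.614 and 1.05 in the bis_2-chloroethoyl_methane rats, from -1.64 to -1.12 in the pulegone rats and from -2.16 to -1.38 in the 1,2-dibromo-2,4-dicyanobutane rats. The DMPT and Pyrogallol rats, aged 6 months, had from 0.356 to 0.951, so the set differed as much within an age as between the ages. The part of this set in the other results was not tested. By the cut of 0.9, which was chosen after seeing the data, 3640 of the 4123 calls lay outside it. Probes with a weaker correlation, or one below -0.9, count as outside, so this number does not separate those calls from the pattern. Over all lists 12 members belonged to it, among those named above Ugt1a7c and Klrk1.

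**Figure D5:**
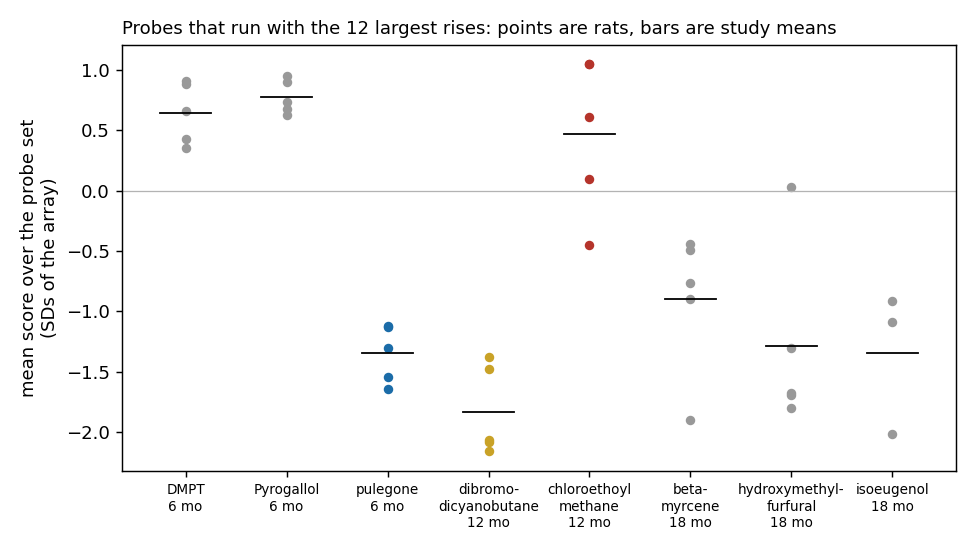
Mean score of the 513 probes that run with the 12 largest rises, in SDs of the array, for each of the 38 rats by study and age in months (mo); bars are study means. The bis_2-chloroethoyl_methane rats (red) run from -0.447 to 1.05, above the pulegone rats (blue, -1.64 to -1.12) and the other 12-month study (ochre), and the DMPT and Pyrogallol rats at 6 months lie as high.

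Sizes on the scale of ratios are less certain than the calls. Each array's scores were evenly spaced, and setting that spacing to 0.001 undid the standardization and gave recovered log ratios whose base is not stated in the sources used here. Read as log2, Gimd1 fell by 2.01, Hao2 by 1.5 and Sult1e1 by 1.43, and Spp1 and Gpnmb rose by 0.92 and 0.68. If they were instead log10 ratios with 4 decimals, these sizes would shrink to 0.332 of the values given.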

How the data were processed

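Liver RNA of 38 untreated rats was measured on 2-colour Agilent arrays, 1 array for each rat, as the labels and the design text state; 10 of the arrays form the comparison. The values used are the deposited scores, 1 column for each rat, which were standardized within each array before deposit, as found from the values, and for the steps before that nothing is given in the sources used here. Scale and centring before that step are unknown, column medians of the 10 arrays ran from -0.076 to 0.08, and no scanner signals were used, so the number of arrays limits the precision. Probe annotation gave 1 symbol for 12594 of 20277 probes, several for 5 and none for 7678, and 12572 matched RefSeq. For a gene with several probes the one with the fewest missing values, then the largest SD over all arrays, stood for it. The test was a two-sided moderated one, by lmFit and eBayes of limma 3.58.1 under R 4.3.3, checked on simulated data, for probes with values on at least 4 of 5 arrays of each group. The tests had been planned for log ratios and were run unchanged on the scores.

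Genes named are the 12 largest called and non-overlapping differences each way, up to 6 called members of each of 39 lists, members that complete a complex or pathway beside them, chosen after their values were seen, and 12 genes taken from earlier results. The comparison and the lists were chosen with earlier results of these data known. Alternatives used other arrays, scalings, filters, fits and single rats left out. Tables and figures were made with Python 3.11.15, numpy 2.4.6, pandas 2.3.3 and matplotlib 3.10.9.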

Additional observations from a re-analysis of the deposited data

Results flagged for a closer look

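Between the 12-month studies 23 of the 32 genes named by rule differed by limma's adjusted p, with 5 rats in each. In that comparison 36.1% of all probes tested did. The 12 largest differences each way among these genes were chosen with the same bis_2-chloroethoyl_methane arrays, so the count is a description. The 12 genes with the largest rises against the pulegone rats were all far higher in the bis_2-chloroethoyl_methane rats than in the 1,2-dibromo-2,4-dicyanobutane rats. The differences were 8.979 for Akirin2, 8.643 for Irf2bpl, 8.474 for Sox15, 8.339 for Adcy7, 8.147 for Mmp15, 7.824 for Fxyd7, 7.551 for C13h2orf76, 7.195 for Lama5, 6.819 for Hoxb2, 6.564 for Avp, 6.48 for Nectin1 and 6.438 for Gcnt2. These genes belong to the set of probes that ran together over all arrays. Among the genes with the largest falls the differences were -4.129 for Sult1e1, -3.988 for Prelid3b, -3.733 for Rad50, -3.645 for Hdac2, -3.348 for Inmt, -2.852 for Tac1, -2.322 for Hao2 and -2.234 for Dmxl2. Of the other sex-biased genes Stac3 differed by -3.286, Cyp3a2 by -3.077 and Cyp2c11 by -1.858. Cyp2c11 and Stac3 passed between the 12-month studies but not against the pulegone rats.

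Single rats stood far from the other 4 of their group in 7 of 142 groups of 5 values examined, where chance gives about 1 in 20. Fabp7 was at 0.034 in 12-month rat 2, and Acsm2 at 1.711 in 12-month rat 5. Mean scores over lists were -0.515 for bile acid genes in 12-month rat 1, -0.111 for cytochrome P450 and other phase I genes in 12-month rat 3, -0.264 for biliary markers in 12-month rat 2, and -0.197 for lysosome and autophagy genes in 12-month rat 5. In 6-month rat 1 the mean over glucocorticoid and fasting genes was -1.38, and its 4 companions ran from -0.647 to -0.405.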

How the results depend on the processing

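With 1 rat left out the count of called probes ran from 2698 to 5095. Counts of list members that fell ran from 16 to 26 for oxidative phosphorylation, 14 to 23 for ribosomal proteins, 13 to 16 for the proteasome, 4 to 7 for male-biased genes and 6 to 11 for heat shock genes. Counts that rose ran from 8 to 10 for macrophage genes, 5 to 10 for hepatocyte genes and 4 to 10 for stellate cell genes. Among probes with an SD above the median, where fewer probes are tested, 1768 probes were called, with 12, 12, 8 and 6 falls for oxidative phosphorylation, ribosomal, proteasome and heat shock genes, 6 macrophage rises and 0 stellate cell rises by limma's test. On the recovered log ratios hepatocyte and stellate cell rises numbered 5 each, and the cause was not tested. Sharing the spread with 28 or 38 arrays gave 5466 and 6154 probes, array weights 5116 and a robust fit 4063. Centring gave 3986, quantile scaling 4004 and probes without missing values 4122. Of the 4123 calls of the main fit, 3640 lay outside the 513 probes that ran with the largest rises. That set was chosen after seeing the data, and the test was not run anew without it. Over 32 named genes and their alternatives 612 results kept direction and call, 25 lost the call, 3 gained it and 0 reversed. No paired analysis was possible because replicate numbers follow the sample order and tie no rat to another. Only 5 arrays in each group and an unknown scale before standardization limit the precision, and spot signals over background were not used here.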

Other observations

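Lists of growth control and DNA damage had called members at shares near the 11.6% higher and 10.7% lower of all genes, and their values are given as a description. Of 40 genes of the p53 pathway, DNA damage and senescence 6 rose (15%) and 2 fell (5%), with a median difference of 0.284. The cyclin-dependent kinase inhibitors Cdkn1b and Cdkn2a rose by 1.98 and 1.48, and Mdm2, which degrades p53 and whose probe ran with the largest rises, by 1.3. The repair genes Xpc and Parp2 went opposite ways, Xpc up by 1.25 and Parp2 with a difference of -1.15. Of 24 growth hormone and IGF genes 4 rose (16.7%), among them the binding proteins Igfbp4 (1.78) and Igfbp2 (1.35) and the protease inhibitor Serpina3n (1.6), and 2 fell (8.33%), Nrep and Igfbp6 (-1.31). Of 34 immediate early genes and stress kinases 4 rose (11.8%), among them Jund (2.42), Junb (1.82) and Cebpd (1.49), and 2 fell (5.88%), Fos (-1.22) and Pim3 (-1.21). Each of these genes passed limma's adjusted p.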
